A study of Mus musculus with 20 samples.

Results

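Cholesterol handling in mouse macrophages was described through 28 genes, out of 24421 genes counted in 20 RNA sequencing libraries. The genes were chosen by symbol for their known roles, with earlier results of these data known. They were 18 enzymes of cholesterol synthesis, 5 genes of sterol-regulated control, 3 genes of uptake control, transport and storage, and 2 efflux transporters. All 28 were listed in every library and all 28 passed the filter on low counts. The libraries were made from total RNA of C57BL/6JRj mice, with 4 libraries in each of 5 populations: peritoneal macrophages, choroid plexus macrophages, dura macrophages with high MHC class II, dura macrophages with low MHC class II, and microglia. The low group carries "int" in its sample titles and "lo" in its cell type label and is called MHC II-low here. No treatment or genetic change separates the groups, and age, sort and isolation are not given in the labels. The labels do not state whether the replicates of a population come from separate animals, so p-values measure the spread between these libraries, which may be technical.

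Cells build cholesterol from acetyl-CoA through mevalonate, squalene and lanosterol. The transcription factor SREBP2, encoded by Srebf2, drives the genes of this route. Its escort SCAP carries it out of the endoplasmic reticulum for cleavage when membrane sterol is low, and INSIG1 and INSIG2 hold the complex back when sterol is plentiful. Oxysterols activate the nuclear receptors LXR, which induce the efflux pumps ABCA1 and ABCG1 and MYLIP (IDOL), a ubiquitin ligase that marks lipoprotein receptors for degradation. The brain makes its own cholesterol because plasma lipoproteins do not cross the blood-brain barrier, and macrophages take up cholesterol with the debris and lipoproteins they clear.

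The promoters of 5 members are shown because these genes carry the population differences described below. Hmgcs1, Cyp51, Mvd and Idi1 are synthesis enzymes that peaked in different populations, and Abca1, an efflux pump, had the largest fold change of the 28. Each sequence is the RefSeq window of GRCm38.p6 that runs from 250 bases before the gene start to 50 bases after it, given 5′ to 3′ on the gene's strand. Hmgcs1 is chr13:119690101-119690400 on the plus strand, Cyp51 chr5:4104648-4104947 on the minus strand, Mvd chr8:122443373-122443672 on the minus strand, Idi1 chr13:8885356-8885655 on the plus strand and Abca1 chr4:53159846-53160145 on the minus strand. Capitals mark the CCAAT box on either strand, and in Hmgcs1 also the sterol regulatory element TCACNCCAC.
Hmgcs1: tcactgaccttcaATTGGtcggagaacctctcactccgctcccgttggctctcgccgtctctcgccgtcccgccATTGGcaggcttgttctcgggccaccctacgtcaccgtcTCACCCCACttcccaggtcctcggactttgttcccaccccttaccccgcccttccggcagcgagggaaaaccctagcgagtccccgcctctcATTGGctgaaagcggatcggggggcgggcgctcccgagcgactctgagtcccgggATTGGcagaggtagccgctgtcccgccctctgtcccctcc
Cyp51: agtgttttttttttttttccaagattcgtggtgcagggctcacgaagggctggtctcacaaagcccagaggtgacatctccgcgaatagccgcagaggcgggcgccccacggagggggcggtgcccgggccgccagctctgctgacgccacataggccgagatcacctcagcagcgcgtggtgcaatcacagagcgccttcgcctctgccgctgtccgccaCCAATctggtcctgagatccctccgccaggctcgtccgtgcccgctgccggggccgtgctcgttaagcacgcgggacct
Mvd: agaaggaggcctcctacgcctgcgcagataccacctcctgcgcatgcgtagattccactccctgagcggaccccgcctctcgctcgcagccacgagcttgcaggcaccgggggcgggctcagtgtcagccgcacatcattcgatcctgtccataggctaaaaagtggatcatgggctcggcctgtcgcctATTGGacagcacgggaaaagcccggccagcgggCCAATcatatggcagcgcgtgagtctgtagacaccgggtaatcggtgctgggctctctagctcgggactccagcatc
Idi1: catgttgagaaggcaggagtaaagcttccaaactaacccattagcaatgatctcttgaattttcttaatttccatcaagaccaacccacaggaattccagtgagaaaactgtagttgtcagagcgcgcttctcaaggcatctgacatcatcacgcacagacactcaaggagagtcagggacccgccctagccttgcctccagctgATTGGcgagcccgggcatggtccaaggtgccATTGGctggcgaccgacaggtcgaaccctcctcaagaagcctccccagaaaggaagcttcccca
Abca1: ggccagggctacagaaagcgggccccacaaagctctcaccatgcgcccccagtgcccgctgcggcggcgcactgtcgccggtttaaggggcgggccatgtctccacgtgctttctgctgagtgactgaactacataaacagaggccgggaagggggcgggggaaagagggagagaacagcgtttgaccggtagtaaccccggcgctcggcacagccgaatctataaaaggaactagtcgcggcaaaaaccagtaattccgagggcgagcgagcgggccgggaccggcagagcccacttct

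RefSeq promoter windows matched 23 of the 28 members, and Fdps, Fdft1, Sqle, Stard4 and Abcg1 are named only. The CCAAT box, letters CCAAT on either strand and the binding sequence of NF-Y, was present in 20 of 23 member genes, and in 41.1% of all 27025 genes with a window. Among synthesis enzymes it was present in 14 of 15, with 4 copies in the Hmgcs1 window, 2 each in Mvd and Idi1 and 1 in Cyp51. The Abca1 window held 0 copies. The GC box GGGCGG was present in 22 of 23 members against 38.2% of all genes, and the E-box CACGTG in 6 of 23 against 8.09%. The sterol regulatory element TCACNCCAC was found in Hmgcs1 alone among the members and in 1.44% of all 27025 genes with a window. Both strands were searched, and in the Hmgcs1 window the CCAAT and TCACNCCAC matches share no base. A gene with several windows was counted if any of them matched. The shares of all genes include genes that did not pass the count filter, which all members passed. These matches describe letters in the windows, not bound sites.

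Gene counts came to 13383274–32611875 per library, and choroid plexus macrophages and microglia had the shallowest libraries. The defining markers followed the labels. The 4 microglial markers summed to 26342 CPM in microglia and at most 5767 CPM elsewhere, the 4 MHC class II genes to 55575 CPM in MHC II-high and 2200 CPM in MHC II-low dura, and the 2 large peritoneal markers to 1254 CPM in peritoneal macrophages with no other mean above 12.4 CPM. CPM are counts per 1000000 gene counts after TMM scaling. Microglia replicate 3 stood apart: 10 markers of choroid plexus epithelium summed to 19864 CPM in it, against 65.6–701 CPM in the other 3 microglia libraries and 3895–7257 CPM in choroid plexus macrophages. The same markers summed to 60.3–91.7 CPM in peritoneal macrophages, where 4 of 10 were at 0, and to 7.87–32.3 CPM in both dura populations. Immediate early and heat shock genes summed to 168–248 CPM in peritoneal macrophages and 14030–36289 CPM in the other 16 libraries. That difference coincides with every comparison of peritoneal macrophages with another population, so its share of those results cannot be told apart.

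In edgeR's quasi-likelihood test of any difference among the 5 populations, 23 of 28 members passed at a Benjamini-Hochberg adjusted p under 0.05 over all 13960 genes tested. That is 82.1% of members, close to the 81.4% of all genes. The 5 that did not pass were Acat2, which makes acetoacetyl-CoA in the cytosol, Pmvk, the phosphomevalonate kinase, Lss, lanosterol synthase, Hsd17b7, a 3-ketosteroid reductase, and Srebf1. Among pairs of populations, a call required an adjusted p below 0.05 together with a change of 2-fold or more. The map of all 280 fold changes shows the calls.

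**Figure D1:**
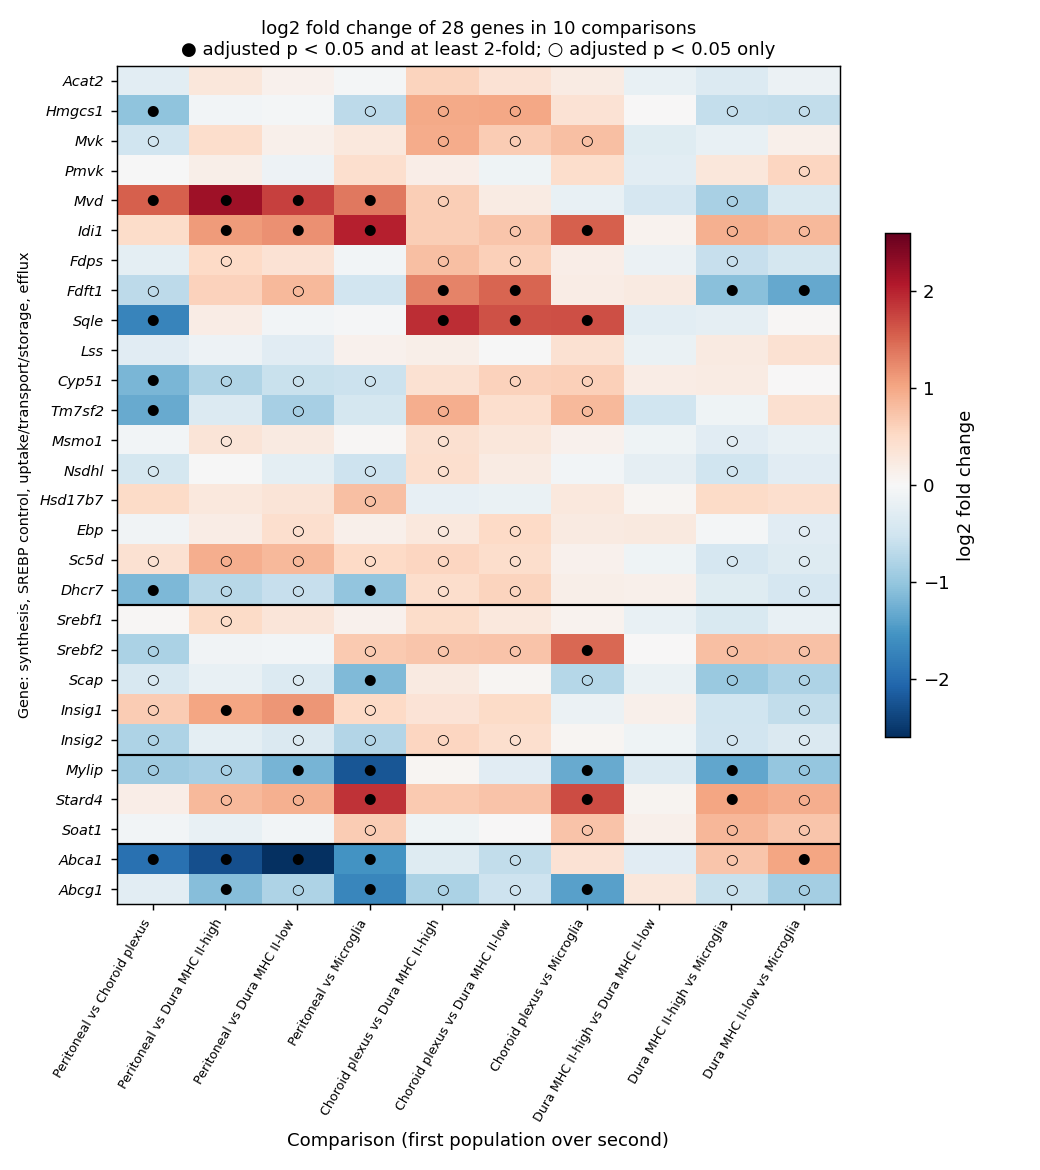
The log2 fold change of each of the 28 genes (rows, ordered by role) in each of 10 comparisons (columns, first population over second) is shown by colour, with filled circles for calls and open circles for an adjusted p below 0.05 alone. The 4 peritoneal columns hold 25 of the 40 filled circles, the column of both dura populations holds none, and the columns of choroid plexus over dura hold mostly open circles.

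Choroid plexus macrophages had the highest mean summed level of synthesis enzyme RNA. They had the highest mean of the 5 populations for 11 of 18 enzymes and the lowest for 0. Their summed levels, at 406–517 CPM, overlapped with peritoneal replicate 4 at 450 CPM and microglia replicate 3 at 423 CPM. The sums were not tested. The summed level of the 18 enzymes was 368 ± 59.5 CPM in peritoneal macrophages, 453 ± 46.2 CPM in choroid plexus macrophages, 301 ± 17.0 CPM in the MHC II-high dura, 303 ± 18.4 CPM in MHC II-low dura and 351 ± 48.0 CPM in microglia (SD, n = 4 each). In bulk RNA, fewer cells expressing a gene and less RNA per cell cannot be told apart.

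Against MHC II-high dura, 12 of 18 enzymes were higher in choroid plexus macrophages at an adjusted p under 0.05 without a fold threshold, 66.7% of them beside 12.9% of all genes, and 0 were lower beside 13.3% of all genes (0 at an unadjusted p under 0.05, and 0 with DESeq2). The higher ones were Hmgcs1, Mvk, Mvd, Fdps, Fdft1, Sqle, Tm7sf2, Msmo1, Nsdhl, Ebp, Sc5d and Dhcr7. The median log2 fold change over the 18 enzymes was 0.56, and over all genes 0.01. Against MHC II-low dura, 10 of 18 were higher, 55.6% beside 15.8% of all genes, and 0 were lower beside 13.3% (0 at an unadjusted p under 0.05, and 0 with DESeq2). The higher ones were Hmgcs1, Mvk, Idi1, Fdps, Fdft1, Sqle, Cyp51, Ebp, Sc5d and Dhcr7, and the median over the 18 was 0.49. Both comparisons use the same 4 choroid plexus libraries.

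Most of these differences were under 2-fold. With the fold threshold, 2 of 28 members were called higher against MHC II-high dura, beside 5.87% of all genes, and 2 of 28 against MHC II-low dura, beside 8.63%. They were Fdft1 and Sqle in each case. By edgeR, 0 members were called lower in either, beside 4% and 4.18% of all genes; at an unadjusted p under 0.05, 1 was lower against MHC II-high and 2 against MHC II-low dura, and DESeq2 called 0. The count of 12 enzymes moved with single libraries, to 6 without choroid plexus replicate 3 and 7 without MHC II-high replicate 4. It was 8 with both microglia replicate 3 and choroid plexus replicate 4 left out. Among all 28 members, 15 passed an adjusted p alone over MHC II-high dura and 14 over MHC II-low dura in either direction, beside 26.3% and 29.2% of all genes, and the calls at 2-fold were beside 9.88% and 12.8%. Over all libraries left out in turn the count of 12 was 6–14, and the count of 10 against MHC II-low dura was 7–11. The counts with libraries left out stand without the shares of all genes in the same runs, and describe only how the member counts moved.

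Sqle, squalene epoxidase, which commits squalene to the sterol branch (chr15:59315077-59331192), had the largest choroid plexus excess among the enzymes. Its level was 3.97, 6.27, 7.52 and 18.2 CPM in peritoneal macrophages, 27.2, 23.9, 29.3 and 37.0 CPM in choroid plexus macrophages, 6.62, 5.71, 9.70 and 9.20 CPM in the MHC II-high dura, 8.33, 9.77, 7.42 and 12 CPM in MHC II-low dura, and 4.58, 22.8, 4.05 and 5.35 CPM in microglia. Every choroid plexus library lay above all 16 others, and microglia replicate 3 lay far above the other microglia. Its log2 fold change was 1.91 ± 0.50 over MHC II-high dura (SE, edgeR adjusted p = 0.00991), 1.65 ± 0.50 over MHC II-low dura (edgeR adjusted p = 0.0184) and 1.67 ± 0.50 over microglia (edgeR adjusted p = 0.0115). Without microglia replicate 3 the last value was 2.59. Without MHC II-low replicate 3 the second was 1.55 and missed the threshold (edgeR adjusted p = 0.0535).

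Fdft1, squalene synthase, joins farnesyl units just before Sqle acts (chr14:63145150-63179578). It had 12.5, 8.60, 7.21 and 19.0 CPM in peritoneal macrophages, 18.4, 18.5, 15.5 and 23.3 CPM in choroid plexus macrophages, 6.16, 6.42, 9.31 and 9.17 CPM in the MHC II-high dura, 7.50, 7.71, 5.28 and 5.96 CPM in MHC II-low dura, and 11.7, 25.9, 16.0 and 12.7 CPM in microglia. Every choroid plexus and every microglia library lay above all 8 dura libraries. In choroid plexus macrophages the log2 fold change was 1.29 ± 0.29 over MHC II-high dura (edgeR adjusted p = 0.00292) and 1.52 ± 0.29 over MHC II-low dura (edgeR adjusted p = 0.000525). Over microglia the log2 fold change was −1.09 ± 0.28 in MHC II-high dura (edgeR adjusted p = 0.00301) and −1.32 ± 0.29 in MHC II-low dura (edgeR adjusted p = 0.000678). Exons of Ctsb on the other strand cover 18.3% of the exon length of Fdft1, and a near-identical copy, Gm6781, matches it at 97.4% over 1249 bases, so its counts are uncertain.

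Hmgcs1, the HMG-CoA synthase that supplies the mevalonate route (chr13:119690379-119708260), had 23.9, 28.4, 20.4 and 29.0 CPM in peritoneal macrophages, 54.2, 45.0, 47.2 and 64.3 CPM in choroid plexus macrophages, 34.2, 27.8, 23.5 and 20.8 CPM in the MHC II-high dura, 25.0, 30.2, 22.8 and 27.4 CPM in MHC II-low dura, and 35.5, 60.2, 33.0 and 34.6 CPM in microglia. The choroid plexus libraries exceeded all others except microglia replicate 3. Its log2 fold change was 0.99 ± 0.19 over MHC II-high dura (edgeR adjusted p = 0.00109) and 1.00 ± 0.19 over MHC II-low dura (edgeR adjusted p = 0.000594), just under the 2-fold threshold. Over microglia it was 0.37 ± 0.19 and did not pass (edgeR adjusted p = 0.132). Exons of the antisense Gm48342 cover 12.1% of its exon length.

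Cyp51, the lanosterol demethylase (chr5:4081145-4104746), had 17.9, 13.3, 14.4 and 28.8 CPM in peritoneal macrophages, 41.8, 39.5, 43.5 and 43.7 CPM in choroid plexus macrophages, 36.1, 29.6, 28.2 and 33.9 CPM in the MHC II-high dura, 27.5, 30.2, 30.0 and 23.4 CPM in MHC II-low dura, and 23.8, 33.2, 25.1 and 27.7 CPM in microglia. The choroid plexus libraries lay above all 16 others. The log2 fold change passed over MHC II-low dura (0.60 ± 0.18, edgeR adjusted p = 0.0171) and microglia (0.62 ± 0.18, edgeR adjusted p = 0.00953), and missed over MHC II-high dura (0.40 ± 0.18, edgeR adjusted p = 0.11). Dhcr7, the last reductase of the route (chr7:143823145-143848410), had 12.1–25.4 CPM in peritoneal macrophages, 32.4–40.3 CPM in choroid plexus macrophages, 26.1–29.6 CPM in the MHC II-high dura, 21.7–27.7 CPM in MHC II-low dura and 30.7–36.5 CPM in microglia. Its choroid plexus libraries overlapped only with microglia.

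**Figure D2:**
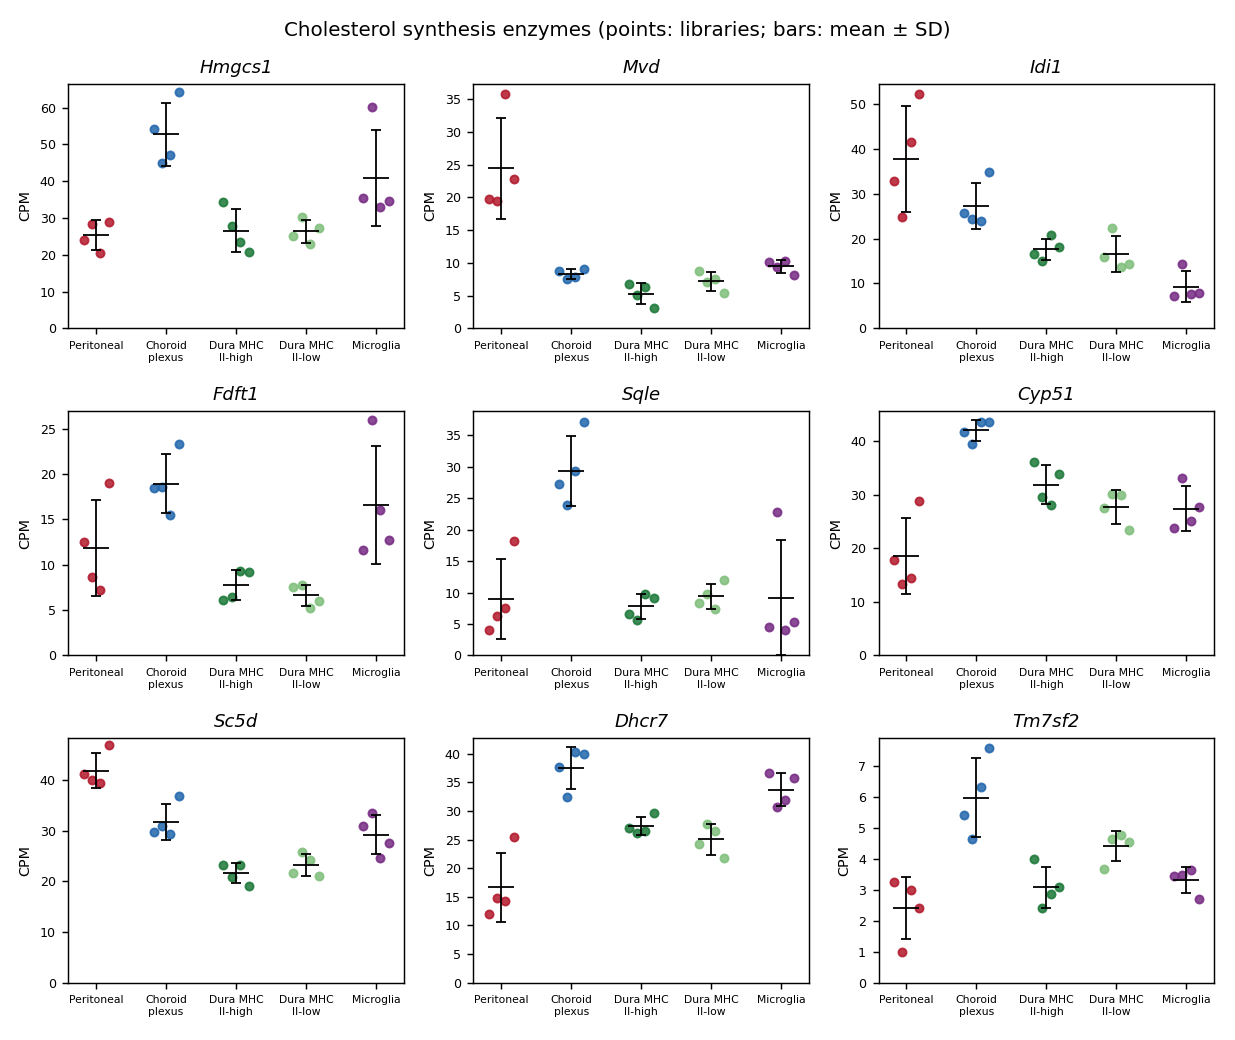
Levels of 9 synthesis enzymes in CPM (vertical axes, from 0) are shown for each library as a point, by population from left to right, with bars for the mean ± SD of 4 libraries. Sqle and Cyp51 are highest in all 4 choroid plexus libraries, Mvd and Sc5d in all 4 peritoneal libraries, and 1 microglia library (replicate 3) lies above the other 3 for Hmgcs1, Idi1, Fdft1 and Sqle.

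The markers of choroid plexus epithelium also differed between choroid plexus macrophages and the dura populations. All 10 were detected in choroid plexus macrophages at 3895–7257 CPM in sum, against 10.6–32.3 CPM in MHC II-high and 7.87–23.1 CPM in MHC II-low dura. Within the choroid plexus group, replicate 4 had the lowest marker sum, 3895 CPM, and the highest summed synthesis, 517 CPM, with the highest level of 13 of 18 enzymes. Microglia replicate 3, with the highest marker sum of any library, had 423 CPM of summed synthesis against 326–328 CPM in the other 3 microglia libraries, and the highest level of 12 of 18 enzymes. Single libraries also led most enzymes in the populations with few epithelial markers. Peritoneal replicate 4 was highest for 13 of 18, at 63.0 CPM of markers. MHC II-high replicate 1 and MHC II-low replicate 2 were each highest for 10 of 18, at 19.4 and 7.87 CPM. An epithelial part was estimated from the excess of microglia replicate 3, scaled by the markers, in an alternative chosen after seeing the data. It came to 13.4% of Hmgcs1, 17.0% of Sqle and 18.1% of Fdft1 in choroid plexus macrophages. With it subtracted and microglia replicate 3 left out, 14 of 18 enzymes were higher than in MHC II-high dura and 10 of 18 than in MHC II-low dura, beside 12.9% and 15.7% of all genes. The estimate rests on a single library and takes any excess in it as epithelial. Subtraction and the left-out library changed together in these counts. With microglia replicate 3 left out and nothing subtracted, fewer than 14 enzymes were higher than in MHC II-high dura. Over single libraries left out in turn, 14 was reached only without peritoneal replicate 2. Subtraction with microglia replicate 3 kept was not run. Fibroblast markers also differed, at 286–968 CPM in choroid plexus macrophages, 155–314 CPM in MHC II-high and 138–197 CPM in MHC II-low dura, and their part was not tested.

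**Figure D3:**
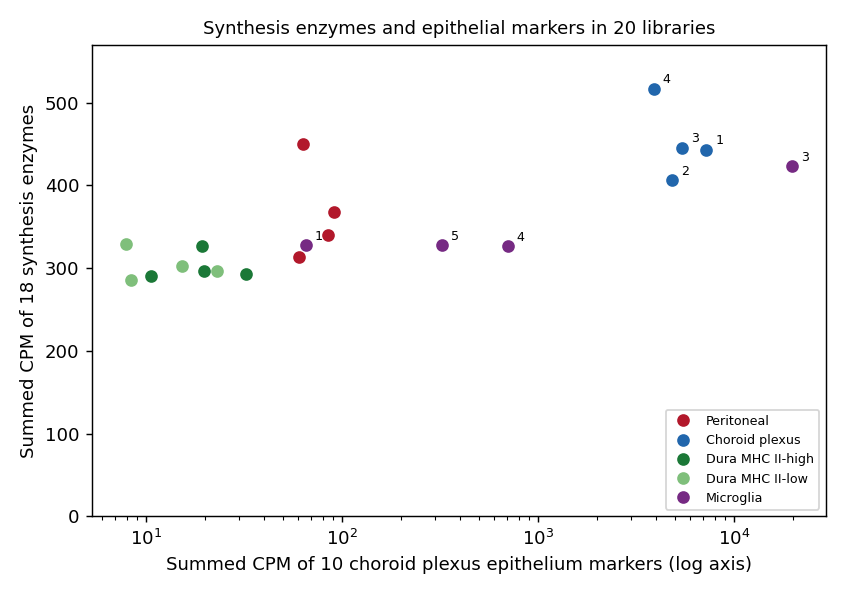
The summed CPM of the 18 synthesis enzymes (vertical axis) is plotted against the summed CPM of 10 choroid plexus epithelium markers (horizontal log axis) for each of 20 libraries, coloured by population, with replicate numbers for choroid plexus and microglia. Microglia replicate 3 lies at 19864 and 423 CPM, away from the other microglia at 326–328 CPM, and choroid plexus replicate 4 has the lowest marker sum and the highest synthesis sum of its group.

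Over microglia, choroid plexus macrophages had 5 of 18 enzymes higher at an adjusted p under 0.05, 27.8% beside 24.6% of all genes, and 0 lower beside 17.8% (0 at an unadjusted p under 0.05, and 0 with DESeq2). The 5 were Mvk, Idi1, Sqle, Cyp51 and Tm7sf2, and the median over the 18 was 0.25, over all genes 0.09. The share is near that of all genes. Without microglia replicate 1 the count was 3, and the share of all genes in that run is not given here. Tm7sf2, a sterol 14-reductase, was near the low end of the range, with 0.984–3.25 CPM in peritoneal macrophages, 4.62–7.56 CPM in choroid plexus macrophages, 2.41–3.98 CPM in the MHC II-high dura, 3.67–4.75 CPM in MHC II-low dura and 2.71–3.65 CPM in microglia.

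Peritoneal macrophages had a different profile, with some enzymes far higher and others lower than in the other populations. Mvd, mevalonate diphosphate decarboxylase (chr8:122433601-122443422), had 19.7, 19.5, 35.7 and 22.8 CPM in peritoneal macrophages, 8.79, 7.52, 7.79 and 9.02 CPM in choroid plexus macrophages, 6.72, 5.13, 6.26 and 3.03 CPM in the MHC II-high dura, 8.74, 7.04, 7.50 and 5.36 CPM in MHC II-low dura, and 10.2, 9.32, 10.2 and 8.13 CPM in microglia. Every peritoneal library lay above all 16 others. Its log2 fold change was 1.56 ± 0.23 over choroid plexus, 2.21 ± 0.24 over MHC II-high dura, 1.77 ± 0.23 over MHC II-low dura and 1.37 ± 0.23 over microglia, with edgeR adjusted p between 1.33e-07 and 2.82e-05.

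Idi1, the isomerase that makes dimethylallyl diphosphate (chr13:8885501-8892451), had 32.8, 24.8, 41.5 and 52.2 CPM in peritoneal macrophages, 25.7, 24.5, 24.0 and 34.8 CPM in choroid plexus macrophages, 16.6, 15, 20.7 and 18.1 CPM in the MHC II-high dura, 15.9, 22.5, 13.7 and 14.3 CPM in MHC II-low dura, and 7.27, 14.4, 7.58 and 7.80 CPM in microglia. Peritoneal libraries lay above all dura and microglia libraries and overlapped with choroid plexus. In peritoneal macrophages the log2 fold change was 1.10 ± 0.24 over MHC II-high dura (edgeR adjusted p = 0.000567), 1.19 ± 0.24 over MHC II-low dura (edgeR adjusted p = 0.000246) and 2.03 ± 0.25 over microglia (edgeR adjusted p = 3.89e-07). Choroid plexus exceeded microglia by 1.56 ± 0.25 (edgeR adjusted p = 3.03e-05). Without peritoneal replicate 4 the value over MHC II-high dura was 0.94, under 2-fold. The copy Gm13502 is identical to Idi1 over 684 bases, so its counts are uncertain. Sc5d, a sterol desaturase, had 39.5–47.0 CPM in peritoneal macrophages and 19.2–37.0 CPM in the other 16 libraries, with log2 fold changes of 0.40–0.95 in the 4 comparisons, all past the threshold and none at 2-fold.

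Other enzymes were lower in peritoneal macrophages. Over choroid plexus, the log2 fold change was −1.18 ± 0.18 for Cyp51 (edgeR adjusted p = 1.47e-05), −1.18 ± 0.17 for Dhcr7 (edgeR adjusted p = 5.12e-06) and −1.31 ± 0.31 for Tm7sf2 (edgeR adjusted p = 0.00114). It was −1.05 ± 0.19 for Hmgcs1 (edgeR adjusted p = 8.68e-05) and −1.71 ± 0.50 for Sqle (edgeR adjusted p = 0.00615). Over microglia it was −1.02 ± 0.17 for Dhcr7 (edgeR adjusted p = 2.03e-05). Over each dura population, Cyp51 and Dhcr7 had log2 fold changes of −0.78 to −0.58, past the threshold and under 2-fold.

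By count, 1 member was called higher and 6 lower in peritoneal than in choroid plexus macrophages, beside 12.6% and 24.1% of all genes, which is 3.57% and 21.4% of the 28. Against MHC II-high dura 3 were called higher and 2 lower, beside 9.18% and 20.1%. Against MHC II-low dura 3 were higher and 2 lower, beside 11.9% and 20%. Against microglia 3 were higher and 5 lower, beside 18.9% and 25.7% of all genes. These shares of members are near or below those of all genes, and the 4 comparisons share the peritoneal libraries. In either direction the calls came to 7 of 28 over choroid plexus, 5 over MHC II-high dura, 5 over MHC II-low dura and 8 over microglia, beside 36.7%, 29.2%, 31.9% and 44.6% of all genes. Without the fold threshold they came to 16, 13, 15 and 17, beside 62.8%, 54.3%, 57.6% and 69.3%.

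Of the 18 enzymes alone, 2 were higher and 8 lower in peritoneal than in choroid plexus macrophages without the fold threshold, beside 27% and 35.8% of all genes. Over MHC II-high dura 5 were higher and 2 lower, beside 22.8% and 31.5%. Over MHC II-low dura 5 were higher and 3 lower, beside 25% and 32.6%, and over microglia 4 were higher and 4 lower, beside 31.7% and 37.5%.

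The remaining enzymes are given by their ranges. Mvk, mevalonate kinase, averaged 5.86–11.5 CPM over the 5 populations and Fdps, farnesyl diphosphate synthase, 13.3–22.7 CPM, both highest in choroid plexus macrophages. Msmo1, a methyl sterol oxidase, averaged 35.7–47.3 CPM and Nsdhl, a sterol dehydrogenase, 12.2–17.6 CPM outside the peritoneal libraries and 12.1 CPM within them. Ebp, the sterol isomerase, averaged 41.3–59.3 CPM, and per kilobase of exon it was the highest of the 18 enzymes in every population, at 17.9–25.7 CPM per kb. Acat2, Pmvk, Lss and Hsd17b7 averaged 4.81–13.0 CPM, and Acat2 counts are uncertain because Acat3 matches it at 97.7% over 1477 bases.

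Between MHC II-high and MHC II-low dura macrophages, 0 of 28 members were called by edgeR, beside 2.39% of all genes higher and 1.48% lower. At an adjusted p alone the count was also 0, beside 5.77% of all genes higher and 5.19% lower, or 3.88% and 11% in either direction with and without the fold threshold, and DESeq2 called 0. At an unadjusted p under 0.05, 1 member was higher, Ebp, by 0.26 on the log2 scale (edgeR adjusted p = 0.0889), and 0 were lower. The 28 log2 fold changes ran from −0.51 for Tm7sf2 to 0.29 for Abcg1. The libraries of 26 members overlapped, and the share of all genes that overlap was not counted. The exceptions were Ebp and Mylip. Ebp had 45.9–54.6 CPM in MHC II-high and 35.3–44.4 CPM in MHC II-low dura. Mylip had 62.3–78.5 CPM in MHC II-high and 85.6–96.1 CPM in MHC II-low dura. The fit did not pair libraries by replicate number, although same-number libraries of these populations were correlated. With a replicate block shared by all 5 populations, 0 members were called at 2-fold. No member was near 2-fold in the main fit, so this count could hardly differ. It is not a paired test of the dura populations. These values do not show that the populations are alike.

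Between dura macrophages and microglia, the share of synthesis enzymes that were lower stood above that of all genes in the MHC II-high dura and near it in MHC II-low dura. At an adjusted p alone, 7 of 18 enzymes were lower in MHC II-high dura than in microglia, 38.9% beside 24.1% of all genes, and 1, Idi1, was higher, beside 29.4%. In MHC II-low dura 5 of 18 were lower, 27.8% beside 23.4%, and 2, Idi1 and Pmvk, were higher, beside 27.7% (1 with DESeq2). The count of 5 was 2 without MHC II-low replicate 1 and 8 without peritoneal replicate 4, and the shares of all genes in those runs are not given here. Microglia replicate 3, the library with 19864 CPM of choroid plexus epithelium markers and 423 CPM of summed synthesis, is among the microglia compared here. Summed synthesis was 290–327 CPM in MHC II-high and 286–329 CPM in MHC II-low dura, against 326–328 CPM in the other 3 microglia libraries. Without that library 6 of 18 enzymes were lower in MHC II-high and 5 of 18 in MHC II-low dura, beside 24.2% and 22.9% of all genes, and its part in the counts beyond this was not tested. With the fold threshold, 1 member was higher and 2 lower in MHC II-high dura, beside 15.7% and 12.2% of all genes, and 1 higher and 1 lower in MHC II-low dura, beside 13.8% and 12.7%. Without MHC II-high replicate 1 the first total was 5, and without MHC II-low replicate 1 or microglia replicate 3 the second was 4. These totals are also given without the shares of all genes in the same runs. In either direction the 3 and 2 calls stand beside 27.9% and 26.5%, and the 16 members past an adjusted p alone in each stand beside 53.5% and 51%. Fdft1 was the enzyme called lower in both.

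Among the control genes, Srebf2 and Scap were ordered oppositely in choroid plexus macrophages and microglia. Srebf2 (chr15:82147181-82205379) had 62.2, 71.9, 45.7 and 111 CPM in peritoneal macrophages, 117, 134, 140 and 121 CPM in choroid plexus macrophages, 74.8, 73.1, 81.1 and 81.3 CPM in the MHC II-high dura, 63.9, 84.2, 76.8 and 82.1 CPM in MHC II-low dura, and 48.5, 49.5, 39.1 and 43.8 CPM in microglia. All choroid plexus libraries lay above all 16 others, and all microglia libraries below all choroid plexus and dura libraries. In choroid plexus macrophages the log2 fold change was 1.499 ± 0.18 over microglia (edgeR adjusted p = 1.06e-06), 0.72 ± 0.18 over MHC II-high dura (edgeR adjusted p = 0.00578) and 0.74 ± 0.18 over MHC II-low dura (edgeR adjusted p = 0.00382).

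Scap, the SREBP escort (chr9:110333288-110384950), had 33.5, 41.0, 32.8 and 49.3 CPM in peritoneal macrophages, 59.5, 47.1, 51.9 and 49.9 CPM in choroid plexus macrophages, 50.3, 47.0, 40.7 and 40.0 CPM in the MHC II-high dura, 47.7, 49.7, 53.5 and 49.0 CPM in MHC II-low dura, and 92.7, 81.4, 77.7 and 96.8 CPM in microglia. Every microglia library lay above all 16 others. Over microglia the log2 fold change was −1.15 ± 0.12 in peritoneal macrophages (edgeR adjusted p = 6.81e-08), −0.74 ± 0.12 in choroid plexus macrophages (edgeR adjusted p = 5.67e-05), −0.97 ± 0.12 in MHC II-high dura (edgeR adjusted p = 1.5e-06) and −0.80 ± 0.12 in MHC II-low dura (edgeR adjusted p = 1.75e-05). Exons of an overlapping antisense gene cover 13.2% of its exon length.

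The INSIG genes differed from each other in where they were high. Insig1 (chr5:28071363-28078662), itself an SREBP target, had 53.5, 52.7, 46.2 and 80.5 CPM in peritoneal macrophages, 32.1, 42.9, 34.1 and 37.3 CPM in choroid plexus macrophages, 21.6, 19.8, 42.4 and 30.5 CPM in the MHC II-high dura, 23.0, 25.9, 30.1 and 25.4 CPM in MHC II-low dura, and 32.6, 54.8, 31.1 and 44.9 CPM in microglia. Peritoneal libraries lay above all choroid plexus and dura libraries, and microglia replicate 3 reached into their range. In peritoneal macrophages the log2 fold change was 1.03 ± 0.23 over MHC II-high dura (edgeR adjusted p = 0.000756) and 1.16 ± 0.23 over MHC II-low dura (edgeR adjusted p = 0.000216). Without peritoneal replicate 4 these were 0.86 and 0.99, under 2-fold. Insig2 had 21.3–33.1 CPM in peritoneal macrophages, 43.7–45.7 CPM in choroid plexus macrophages, 27.9–31.8 CPM in the MHC II-high dura, 28.5–36.7 CPM in MHC II-low dura and 40.7–47.6 CPM in microglia. The log2 fold change of peritoneal macrophages over choroid plexus was −0.80 ± 0.12 (edgeR adjusted p = 7.92e-06). Srebf1, whose product drives fatty acid genes more than sterol genes, averaged 57.6–81.7 CPM and did not pass across the 5 populations (edgeR adjusted p = 0.098). Of the proteases that cleave SREBP, Mbtps2 was lower than in microglia by a log2 fold change of −0.80 ± 0.21 in choroid plexus macrophages (edgeR adjusted p = 0.00365) and −0.74 ± 0.20 in MHC II-high dura (edgeR adjusted p = 0.00457), and Mbtps1 ranged from −0.21 to 0.24 over the 10 comparisons without passing.

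Mylip was highest in microglia (chr13:45389742-45412022). It had 28, 63.5, 41.2 and 24.9 CPM in peritoneal macrophages, 74.7, 92.5, 67.0 and 63.2 CPM in choroid plexus macrophages, 66.7, 78.1, 78.5 and 62.3 CPM in the MHC II-high dura, 96.1, 93.1, 85.6 and 91.6 CPM in MHC II-low dura, and 193, 172, 187 and 181 CPM in microglia. Every microglia library lay above all 16 others, by a wide gap. Over microglia the log2 fold change was −2.22 ± 0.21 in peritoneal macrophages (edgeR adjusted p = 1.39e-08), −1.30 ± 0.20 in choroid plexus macrophages (edgeR adjusted p = 3.26e-05), −1.36 ± 0.20 in MHC II-high dura (edgeR adjusted p = 1.34e-05) and −0.9997 ± 0.20 in MHC II-low dura (edgeR adjusted p = 0.00039).

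Stard4, a carrier that moves cholesterol between membranes, was low throughout. It had 7.91, 6.60, 5.97 and 13.0 CPM in peritoneal macrophages, 6.43, 8.37, 7.18 and 7.69 CPM in choroid plexus macrophages, 4.24, 2.01, 5.74 and 6.57 CPM in the MHC II-high dura, 2.69, 5.40, 6.10 and 3.45 CPM in MHC II-low dura, and 1.88, 1.98, 2.95 and 2.31 CPM in microglia. All peritoneal and choroid plexus libraries lay above all microglia libraries, and both dura groups overlapped with microglia. Its log2 fold change was 1.87 ± 0.35 in peritoneal macrophages (edgeR adjusted p = 9.19e-05) and 1.70 ± 0.35 in choroid plexus macrophages (edgeR adjusted p = 0.000564), each over microglia. The call in MHC II-high dura (1.02 ± 0.35, edgeR adjusted p = 0.0179) missed the adjusted p threshold when MHC II-high replicate 3 or 4 or microglia replicate 1 or 3 was left out, with fitted values of 0.81–0.89. It passed that threshold but was under 2-fold, at 0.96, without microglia replicate 5, choroid plexus replicate 1, 2 or 3, MHC II-low replicate 4 or peritoneal replicate 4. Soat1, which esterifies cholesterol for storage in droplets, had 120–173 CPM in the libraries outside microglia and 67.8–95.2 CPM in microglia, with log2 fold changes of 0.66–0.86 over microglia in the 4 comparisons, all past the threshold.

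The efflux pumps had different orders. Abca1, which loads cholesterol on to apolipoprotein A-I (chr4:53030787-53159895), had 115, 202, 121 and 74.2 CPM in peritoneal macrophages, 544, 552, 481 and 393 CPM in choroid plexus macrophages, 564, 806, 539 and 581 CPM in the MHC II-high dura, 847, 725, 739 and 758 CPM in MHC II-low dura, and 428, 315, 347 and 419 CPM in microglia. Every peritoneal library lay below all 16 others. In peritoneal macrophages the log2 fold change was −1.94 ± 0.22 over choroid plexus (edgeR adjusted p = 2.85e-07), −2.28 ± 0.22 over MHC II-high dura (edgeR adjusted p = 4.47e-08), −2.58 ± 0.22 over MHC II-low dura (edgeR adjusted p = 7.24e-09) and −1.56 ± 0.22 over microglia (edgeR adjusted p = 3.02e-06). MHC II-low dura exceeded microglia by 1.02 ± 0.21 (edgeR adjusted p = 0.000536), at the edge of the 2-fold threshold. Choroid plexus was lower than MHC II-low dura, with a log2 fold change of −0.64 ± 0.21 (edgeR adjusted p = 0.0292).

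Abcg1, which passes cholesterol to HDL (chr17:31057675-31117988), had 30.2, 47.5, 31.9 and 34.7 CPM in peritoneal macrophages, 46.9, 43.3, 47.3 and 37.2 CPM in choroid plexus macrophages, 98.6, 80.5, 56.9 and 73.1 CPM in the MHC II-high dura, 81.1, 55.5, 54.9 and 60.5 CPM in MHC II-low dura, and 119, 103, 124 and 119 CPM in microglia. All microglia libraries lay above all others, and peritoneal and choroid plexus libraries overlapped. Over microglia the log2 fold change was −1.69 ± 0.17 in peritoneal macrophages (edgeR adjusted p = 2.25e-08), −1.41 ± 0.17 in choroid plexus macrophages (edgeR adjusted p = 8.73e-07), −0.59 ± 0.16 in MHC II-high dura (edgeR adjusted p = 0.00499) and −0.88 ± 0.16 in MHC II-low dura (edgeR adjusted p = 0.000157). Per kilobase of exon the Abca1 level was above the Abcg1 level in every population, at 12.4–74.0 CPM per kb for Abca1 and 4.94–15.9 CPM per kb for Abcg1.

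**Figure D4:**
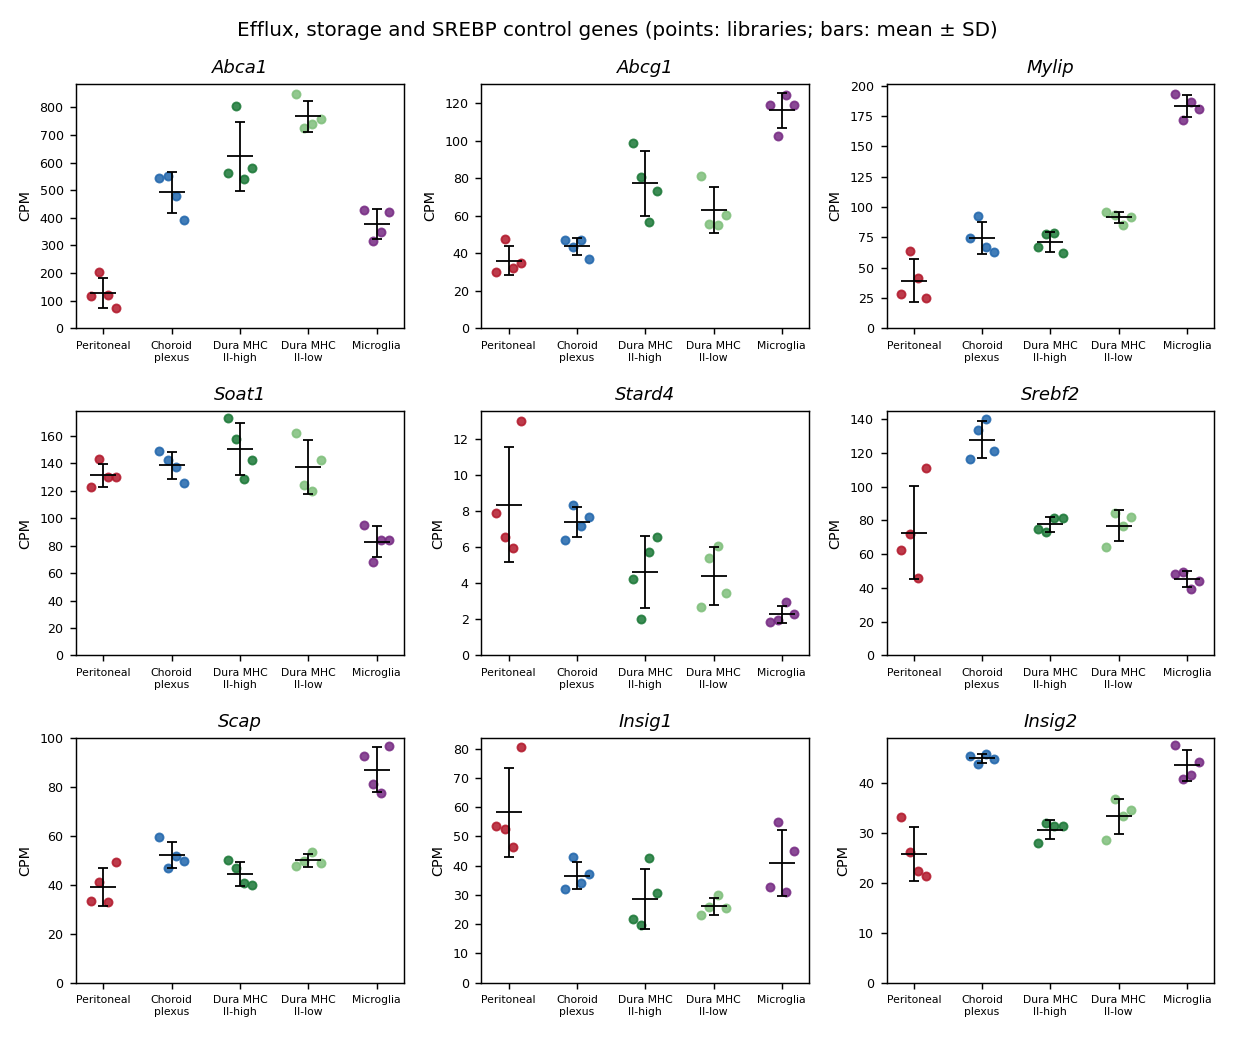
Levels in CPM (vertical axes, from 0) of 9 efflux, uptake, storage and control genes are shown for each library as a point, by population from left to right, with bars for the mean ± SD of 4 libraries. Abca1 is lowest in all 4 peritoneal libraries, Abcg1, Mylip and Scap are highest in all 4 microglia libraries, and Srebf2 is highest in all 4 choroid plexus libraries.

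In choroid plexus macrophages over microglia, 4 of 28 members were called higher (Idi1, Sqle, Srebf2 and Stard4) and 2 lower (Mylip and Abcg1), beside 12.1% and 7.11% of all genes. That is 14.3% and 7.14% of the members, near the shares of all genes. In either direction the 6 calls stand beside 19.2%, and the 11 members past an adjusted p alone beside 42.4%.

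Neighbouring lipid genes were counted from lists chosen for their roles. Of 11 fatty acid synthesis genes, 5 were called higher and 2 lower in peritoneal macrophages than in MHC II-high dura, beside 9.18% and 20.1% of all genes. Acly, which makes cytosolic acetyl-CoA, averaged 2322 ± 321 CPM in peritoneal macrophages and 199 ± 11.6 CPM in MHC II-high dura, and Acaca, acetyl-CoA carboxylase, 218 ± 57.6 CPM in peritoneal macrophages and 8.44 ± 1.96 CPM in MHC II-high dura. Fads1, a fatty acid desaturase, averaged 3.66 ± 2.01 CPM in peritoneal macrophages and 164 ± 12.8 CPM in MHC II-high dura. Acly was higher in peritoneal macrophages in all 4 comparisons, while Cyp51 and Dhcr7 were lower in all 4. Choroid plexus macrophages had 2 of 11 called higher than MHC II-high dura, beside 5.87% of all genes, among them Scd2, a stearoyl-CoA desaturase, at 68.0 ± 16.9 CPM in choroid plexus macrophages and 20.9 ± 5.82 CPM in MHC II-high dura (SD, n = 4 each).

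Of 7 LXR receptors and targets outside the 28 members, 4 were called higher and 1 lower than in microglia in each of the other 4 populations, beside 12.1–18.9% of all genes higher and 7.11–25.7% lower. These 4 comparisons share the microglia libraries. Apoe, the main apolipoprotein of the brain, averaged 43649 ± 2966 CPM in choroid plexus macrophages and 1029 ± 172 CPM in microglia, a log2 fold change of 5.41 ± 0.18 (edgeR adjusted p = 5.74e-15). Lpcat3, a lysophospholipid acyltransferase, ran the other way, at 48.7 ± 2.50 CPM in choroid plexus macrophages and 257 ± 24.0 CPM in microglia. Among LXR targets, Abcg1, Mylip and Lpcat3 had their highest mean in microglia, and Apoe, lipoprotein lipase Lpl and the phospholipid transfer protein Pltp their lowest. Abca1 had neither, with a mean of 377 CPM in microglia, 767 CPM in MHC II-low dura, its highest, and 128 CPM in peritoneal macrophages, its lowest. Of 9 uptake and lysosomal genes, 4 were called higher in choroid plexus macrophages than in microglia, beside 12.1% of all genes, among them the scavenger receptor Cd36, at 308 ± 25.8 CPM in choroid plexus macrophages and 1.18 ± 0.815 CPM in microglia.

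Of the 3 oxysterol enzymes, Ch25h makes 25-hydroxycholesterol, which holds SREBP back and activates LXR. It had 0 counts in all 4 peritoneal libraries, and averaged 112 ± 21.3 CPM in choroid plexus macrophages, 49.2 ± 12 CPM in the MHC II-high dura, 23.1 ± 1.94 CPM in MHC II-low dura and 1.29 ± 1.25 CPM in microglia. Choroid plexus macrophages were at least 4052-fold higher than peritoneal macrophages, against a floor of 3 counts summed over the 4 peritoneal libraries. Ch25h was higher in choroid plexus than in MHC II-high dura by 1.18 ± 0.32 on the log2 scale (edgeR adjusted p = 0.0137), and the libraries of these populations did not overlap. Cyp27a1, the sterol 27-hydroxylase, averaged 22.1 ± 4.65 CPM in peritoneal macrophages, 134 ± 5.71 CPM in choroid plexus macrophages, 118 ± 9.71 CPM in the MHC II-high dura, 156 ± 5.23 CPM in MHC II-low dura and 37.5 ± 2.69 CPM in microglia.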

How the data were processed

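Total RNA from 20 mouse macrophage libraries was sequenced, and the authors deposited whole-number read counts per gene and library, as their values show. Per the submitters' processing notes, the tools were TopHat2 2.1.0, SAMtools 0.1.18, Trimmomatic 0.38 and FastQC 0.11.4, with build mm10. How reads were assigned to genes, by which annotation and with which strand option, is not given in the sources used here, so reads of overlapping antisense genes cannot be told apart. The 5 lines that name no gene were left out of library sizes; reads in no feature were 5.67–13.1% and ambiguous reads 0.836–1.51% of each library.

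A single fit held the counts of the 20 libraries, in edgeR 4.0.16 (R 4.3.3, limma 3.58.1) with TMM scaling, filterByExpr (13960 genes kept) and the robust quasi-likelihood F test, which left 15 residual degrees of freedom. P-values were adjusted by Benjamini-Hochberg over all genes tested. A call needed an adjusted p below 0.05 with a change of 2-fold or more, and counts at an adjusted p alone are given beside it. The procedure was checked on simulated data. CPM were counts per 1000000 TMM-adjusted gene counts. Gene positions came from GENCODE (GRCm38), copies and overlaps from its transcripts. Alternatives were DESeq2 1.42.0, RLE scaling, other count filters (none, or 10 CPM in 4 libraries), a fit of only 2 populations, a replicate block, thinning to 13383274 gene counts and leaving out each library. A further pair of alternatives, without microglia replicate 3 and choroid plexus replicate 4 and with an epithelial part subtracted, were chosen after seeing the data.

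All 28 members are named. Other genes were named from role lists, at most 3 per list and comparison, by the largest fold change among calls that reached 10 CPM in the higher population; Mbtps1, Mbtps2 and genes named across several comparisons were added after their values were seen. The members and lists were chosen with earlier results of these data known. Macrophages of other organs from another series were not analysed here.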

Additional observations from a re-analysis of the deposited data

Results flagged for a closer look

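In each population of 4 libraries, the library farthest from the others was compared with the whole range for each of the 28 genes, which is 140 checks, and 10 stood apart by Dixon's criterion. Chance gives about 1 in 20. Microglia accounted for 4, choroid plexus and MHC II-high dura for 2 each, and peritoneal macrophages and MHC II-low dura for 1 each.

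The 4 in microglia were all replicate 3, which was the highest library for Hmgcs1 (60.2 CPM), Pmvk (11.5 CPM), Idi1 (14.4 CPM) and Sqle (22.8 CPM). The other 3 microglia libraries averaged 34.4 CPM for Hmgcs1 and 4.66 CPM for Sqle. Markers of choroid plexus epithelium summed to 19864 CPM in replicate 3 and to 65.6–701 CPM in the other microglia libraries, and their part in these values was not tested.

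In choroid plexus macrophages, replicate 4 was highest for Idi1 (34.8 CPM) and replicate 3 for Nsdhl (18.8 CPM). In MHC II-high dura, replicate 2 was highest for Abca1 (806 CPM) and replicate 1 lowest for Insig2 (27.9 CPM). Replicate 3 was highest for Ebp in peritoneal macrophages (62.9 CPM) and for Mvk in MHC II-low dura (8.89 CPM).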

How the results depend on the processing

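No called or passing value changed sign under any alternative run. Of 133 member values past the adjusted p, 3 were lost with RLE scaling, 8 with no count filter, 2 of 118 with the 10 CPM filter, 16 with 2 populations in the fit, 7 after thinning, 3 with DESeq2, 15 without microglia replicate 3 and choroid plexus replicate 4, and 7 with the epithelial part subtracted. Leaving out 1 library lost 3–14.

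At an adjusted p alone, the members past the threshold were 16, 13, 15 and 17 in peritoneal macrophages over choroid plexus, MHC II-high dura, MHC II-low dura and microglia. They were 15, 14 and 11 in choroid plexus over MHC II-high dura, MHC II-low dura and microglia, and 16 in each dura population over microglia. Leaving out 1 library, the calls at 2-fold ranged 6–8, 4–7, 4–7 and 7–8 for the 4 peritoneal comparisons, 2–5, 1–3 and 6–6 for the 3 choroid plexus comparisons, 2–5 and 2–4 for MHC II-high and MHC II-low dura over microglia, and 0–0 between the dura populations. Of the 28, 22–25 differed among the 5 populations. MHC II-low dura over microglia had 4 calls under both alternatives added later.

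Choroid plexus over MHC II-high dura had 5 calls when either choroid plexus replicate 2 or MHC II-high replicate 1 was left out, and its 15 members at an adjusted p alone were 9 without choroid plexus replicate 3. The 14 over MHC II-low dura were 9 without choroid plexus replicate 4. The 5 enzymes higher in peritoneal macrophages than in MHC II-high dura were 3 without MHC II-high replicate 4 or peritoneal replicate 4. Sqle over microglia missed the threshold with 2 populations in the fit (log2 fold change 1.58, edgeR adjusted p = 0.058). The cause was not tested.

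Over 36 same-number pairs of libraries from different populations, the correlation of deviations was −0.13 to 0.17, and 7 were over 0.1. Of the 20 libraries, 7 correlated best with their own number. Between MHC II-high and MHC II-low dura, the same-number pairs stood apart, at 0.146, 0.158, 0.145 and 0.173. The other pairs of these populations ran from −0.091 to 0.0095. The main fit did not use replicate numbers. With a replicate block, calls were 7, 5, 5 and 7 in the peritoneal comparisons, 2, 3 and 6 in the choroid plexus comparisons, 3 and 3 for dura over microglia and 0 between the dura populations. The block left 22 members differing among the populations, and 8 of the 133 values were lost. In this section the counts stand without the shares of all genes under the same settings. They describe only how the member counts moved. Depth limits Tm7sf2 and Stard4 most, since the smallest median count of a member over the libraries was 75.5.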
